A study of Mus musculus with 11 samples.

Results

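The complement components and regulators described here are 9 of the 28692 genes listed in the deposited matrices: C1qa, C1qb, C1qc, C4b, C3, Cfb, C3ar1, C5ar1 and Cd55. They were picked by symbol, with no measured value in the rule, and were read in tubular, podocyte, endothelial, stromal and immune cells of whole mouse kidney profiled by droplet single-cell RNA-seq. The study compared kidneys with advanced fibrosis to healthy ones with 11 libraries. In 3 UIR libraries (unilateral ischemia-reperfusion), the left renal pedicle of 10-week-old male C57Bl/6 mice had been clamped for 30 min at 37 °C, and in 3 UUO libraries (unilateral ureteral obstruction) the left ureter had been tied off for good. Both injured groups were taken at day 28. The 5 control libraries, titled Ctrl, N1, N2, AN1 and AN2, came from uninjured mice of the same strain, age and sex and were prepared in 3 batches. No transgene or deletion is named for any group, and the operated mice received isoflurane anesthesia and, after surgery, the painkiller buprenorphine. The batch of the injured libraries is not given, so batch and group cannot be told apart, and the methods give as many mice in each group as there are libraries, although no label ties a library to a mouse, so p-values measure the spread between libraries.

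Complement is a cascade of proteins that tags immune complexes, microbes and dying cells. C1q, assembled from the A, B and C chains that C1qa, C1qb and C1qc encode, recognises the target and starts the classical pathway, in which C4 (here C4b) is cleaved. All routes meet at C3, whose cleavage is amplified by factor B (Cfb) in the alternative pathway. The small fragments released from C3 and C5 act on myeloid cells through the receptors C3ar1 and C5ar1, and Cd55 (decay-accelerating factor) sits on cell surfaces and speeds the decay of the enzymes that cleave C3. In kidney, resident macrophages are the known source of C1q, and injured tubular epithelium is a known local source of C3.

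The 3 C1q genes lie side by side on the minus strand of chromosome 4 within 18675 bp (GRCm38), with C1qb at chr4:136880129-136886187, C1qc at chr4:136889804-136893065 and C1qa at chr4:136895917-136898803. C4b (chr17:34728380-34743882) and Cfb (chr17:34856374-34862518) span 134139 bp of one region of chromosome 17, and C3 lies apart from them at chr17:57203970-57228136. C3ar1 is at chr6:122847138-122856161, C5ar1 at chr7:16246743-16259540 and Cd55 at chr1:130439027-130462744, and all 9 genes are read from the minus strand. C4b has a near-identical copy, C4a, which is not among the genes of the deposited matrices. How reads that match both copies were assigned was not examined. C4b counts may therefore include reads of C4a and are uncertain to that extent. The RefSeq promoter table (GRCm38.p6, 250 bases before to 50 after the start) held 6 of the 9 genes and had no entry for C1qa, C4b or Cfb. The promoters of C1qb and C1qc, which shared one pattern across cells, and of C3, which was called higher in proximal tubule and loop of Henle cells in both injuries, are shown 5′ to 3′ on the minus strand, with motif matches in capitals:
C1qb, chr4:136886151-136886450: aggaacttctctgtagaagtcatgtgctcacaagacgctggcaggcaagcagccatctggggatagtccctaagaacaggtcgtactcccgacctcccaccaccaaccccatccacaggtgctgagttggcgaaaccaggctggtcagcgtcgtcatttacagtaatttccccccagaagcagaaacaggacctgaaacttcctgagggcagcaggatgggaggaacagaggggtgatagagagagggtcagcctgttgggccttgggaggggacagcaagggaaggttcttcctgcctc
C1qc, chr4:136892865-136893164: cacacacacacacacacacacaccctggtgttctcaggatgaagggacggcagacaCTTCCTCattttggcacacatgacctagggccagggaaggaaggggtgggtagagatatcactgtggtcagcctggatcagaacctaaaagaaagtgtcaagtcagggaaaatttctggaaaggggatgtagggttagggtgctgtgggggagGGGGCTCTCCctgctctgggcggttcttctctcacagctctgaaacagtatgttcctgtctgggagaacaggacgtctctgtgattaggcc
C3, chr17:57228087-57228386: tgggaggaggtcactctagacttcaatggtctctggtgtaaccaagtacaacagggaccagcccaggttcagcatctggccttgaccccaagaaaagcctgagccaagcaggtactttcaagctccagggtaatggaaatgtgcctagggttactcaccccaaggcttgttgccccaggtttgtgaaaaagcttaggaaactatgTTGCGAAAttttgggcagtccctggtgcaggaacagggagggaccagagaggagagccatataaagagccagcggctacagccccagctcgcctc
The search covered both strands for a GAS element (TTCNNNGAA), an ISRE core (GAAANNGAA), a C/EBP site (TTGCNNAA), a PU.1 site (GAGGAAG) and the NF-kB consensus. The C1qc window held a PU.1 match on the opposite strand 194 bases before the start and an NF-kB match 41 bases before it. The C3 window held a C/EBP match 45 bases before the start, and C5ar1 an ISRE core match on the opposite strand 66 bases before it. None of these motifs was found in the windows of C1qb, C3ar1 and Cd55. Starts here are those of the RefSeq table. For C1qc and C5ar1 they lie inside the gene spans given above. The NF-kB match of C1qc and the ISRE core match of C5ar1 therefore also fall within those spans. The same motifs occurred in 13.6% (PU.1), 4.51% (NF-kB), 10.8% (C/EBP), 8.56% (ISRE core) and 8.30% (GAS) of the 32851 promoters of that length, so these matches describe the sequence only.

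Libraries held 91920461 to 110914244 unique molecular identifiers (UMIs, counted molecules) in control, 82522753 to 117043590 in UIR and 49503312 to 60918546 in UUO, and 40587 cells were kept. Control libraries lost 57.0% to 78.8% of called cells to the mitochondrial limit, against 23.9% to 37.3% in UIR and 3.15% to 8.01% in UUO. Cells were named from marker genes that include no complement gene: proximal tubule (PT), loop of Henle (LOH), distal tubule (DT), collecting duct principal (CD-P) and intercalated (CD-I) cells, failed-repair tubular epithelial cells (frTECs), podocytes (Podo), endothelium (Endo), fibroblasts and mural cells (Fibro), macrophages (Macro), monocytes (Mono), neutrophils (Neutro), dendritic cells (cDC1, cDC2), B cells and T/NK cells. Each class expressed its own markers, and 5513 cells were left unnamed. A class entered a comparison in a library where it had at least 20 cells. Levels are given as CPM, a gene's count for each 1000000 UMIs of that class in that library. Free RNA matters for these genes, because cell-free droplets of the injured libraries already held C1qa at 262 to 337 CPM in UIR and 706 to 855 CPM in UUO, against 11.8 to 22.6 CPM in control. For each pool of cells, the share of UMIs from free RNA was estimated from markers of other tissue compartments, and each gene's UMIs are also given as a ratio to those that share would supply.

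**Figure D1:**
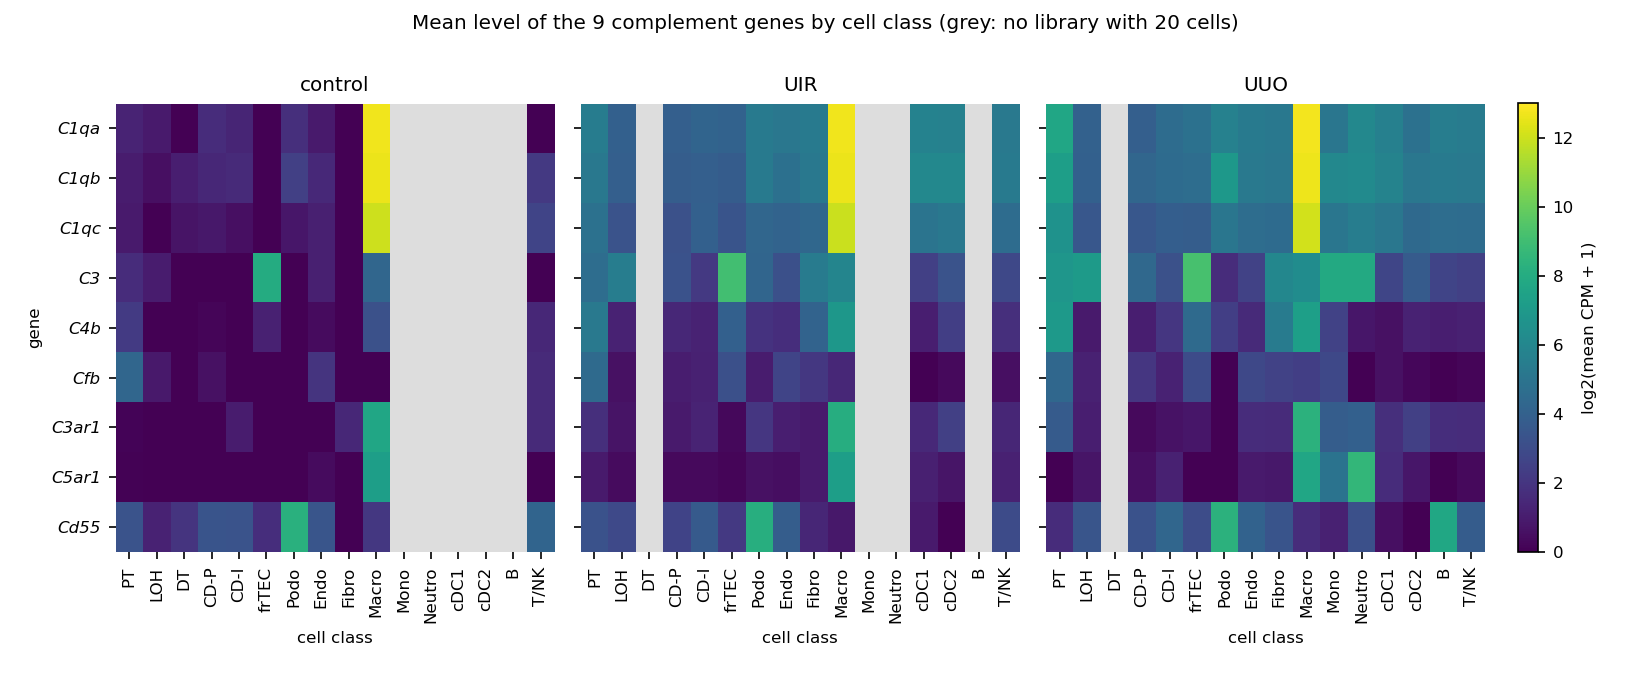
Mean level of each complement gene (rows) in each cell class (columns) as log2(CPM + 1), in control, UIR and UUO panels; grey marks a class with no library of at least 20 cells. The 3 C1q genes stand out in macrophages, Cd55 in podocytes and, in UUO, B cells, and C3 in frTECs and, in UUO, monocytes and neutrophils.

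The genes differed in cell distribution, with the 3 C1q genes alike, as the plot of mean levels by class shows. The C1q genes and C3ar1 were macrophage genes: macrophages held a mean of 93.0% of all C1qa UMIs in control libraries, 88.0% in UIR and 96.3% in UUO, and 93.5%, 89.6% and 95.5% of C3ar1 UMIs. C5ar1 was highest in neutrophils, seen as a pool in UUO only, and next in macrophages, which held 95.7%, 90% and 86.2% of its UMIs. By the mean over all libraries with a pool, groups combined, C3 was led by frTECs, followed by monocytes, neutrophils and macrophages. Monocytes and neutrophils entered from UUO alone, where LOH and PT cells averaged 135 and 112 CPM of C3, above the 80.3 CPM of macrophages. In the unnumbered UUO library, however, macrophages lay above both, and the UUO PT pools held only 30 to 90 cells. By the same mean C4b was led by macrophages, PT cells and fibroblasts, Cfb by PT cells, and Cd55 by podocytes and B cells. Of 80 neighbour pairs in these orders sharing at least 6 libraries, 6 differed at an unadjusted p under 0.05 and 0 after adjustment (exact two-sided sign-flip permutation test over libraries), and pairs sharing only 3 libraries were not tested. With 6 shared libraries the smallest p of this test is 0.0312. C3 in LOH over cDC2 reached it, with a mean difference of 2.75 log2 in 6 of 6 libraries. The 0 adjusted calls therefore do not show that neighbours were close.

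**Figure D2:**
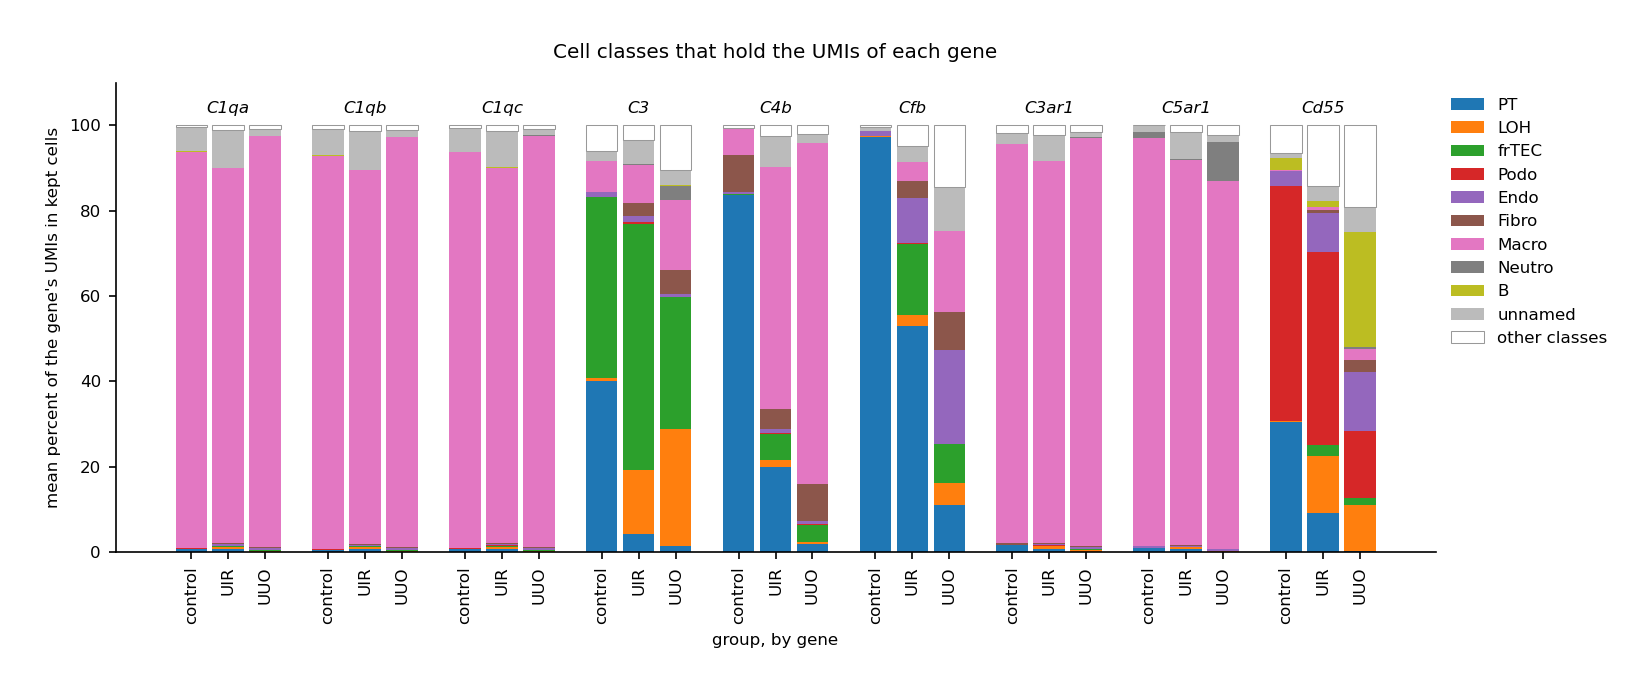
Stacked bars show, for each gene, the mean percent of its UMIs in all kept cells, unnamed ones included, that fell in each class, in control, UIR and UUO libraries. The share of C4b UMIs from macrophages was 6.0% in control, 56.7% in UIR and 79.9% in UUO, and the share of Cfb UMIs from PT cells was 97.3%, 52.9% and 11%.

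Where a gene's molecules came from also moved with injury. PT cells held 83.8% of C4b UMIs in control, 19.8% in UIR and 1.9% in UUO, while macrophages went from 6.0% to 56.7% and 79.9%. For C3, the PT share was 40%, 4.21% and 1.44%, the frTEC share 42.4%, 57.6% and 30.9%, and the LOH share 0.705%, 15.1% and 27.3%. Podocytes held 55.1% of Cd55 UMIs in control, 45.1% in UIR and 15.8% in UUO, where B cells held 27.0%. Such shares follow the numbers of cells caught as well as the level per cell: PT cells fell from 6943 of the kept cells in control to 160 in UUO, and macrophages numbered 296, 2125 and 4089. Of 153 share comparisons by exact permutation test, 54 had p under 0.05 and 0 passed adjustment, in a design whose smallest possible p is 0.0357 for 5 against 3 libraries and 0.1 for 3 against 3.

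Within cell classes, UMIs were summed per library and compared by the edgeR quasi-likelihood test over the whole gene table. Over the 10 classes with pools in all groups, 51 of 90 gene-by-class pairs passed the low-count filter. Of these, 30 were higher in UIR and 34 in UUO than in control, and 0 were lower in either. Pairs with 0 control UMIs, such as C1qa in fibroblasts and C3 in CD-P cells, could not be called lower. At an unadjusted p under 0.05, 1 pair was lower in UIR and 0 in UUO, and DESeq2 also called 0 pairs lower. The C1q genes outside macrophages made up 20 of the 30 and 22 of the 34.

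The pairs divide by class as follows, each beside the percent of all tested genes called higher. In PT cells, 8 members were tested and 6 were higher in UIR (7.65% of genes called higher) and 6 in UUO (2.37%). The median log2 change of those 8 members was 3.98 and 5.37, against 0.00 and −0.13 over all genes tested. LOH cells had 5 members tested, 4 higher in UIR (17.1%) and 5 in UUO (20.3%), and CD-P cells 5 tested and 4 higher in each (11.8% and 19.2%). These were the classes in which the largest share of all genes was called, next to which the members' counts are to be read. CD-I cells had 3 tested, 1 higher in UIR (5.38%) and 2 in UUO (10.6%). Of 5 members tested in frTECs, 0 were called in UIR (1.65%), where 3 had an unadjusted p under 0.05 and DESeq2 called 2, and 1 was higher in UUO (2.3%). Podocytes had 3 tested and 2 higher in each (1.19% and 1.19%), endothelium 6 tested and 4 higher in each (1% and 5.51%), and fibroblasts 5 tested and 5 higher in each (9.65% and 9.69%). The 5 fibroblast members had 0 UMIs in the control pools, so none could be called lower. In T/NK cells 4 were tested and 2 were higher in each (0.302% and 0.969%), where the median of all genes was itself shifted by 0.12 and 0.13. Macrophages had 7 tested, of which 2 were higher in UIR (3.93%) and 3 in UUO (5.48%), with a member median of 0.00 and 0.38 against 0.03 and 0.03 over all genes.

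C1q, the recognition unit, showed no called change in macrophages. C1qa stood at 6461, 7323, 7024, 6700 and 6630 CPM in the control libraries Ctrl, N1, N2, AN1 and AN2, at 6946, 6411 and 6967 CPM in the unnumbered UIR library, UIR1 and UIR2, and at 6813, 7485 and 6491 CPM in the unnumbered UUO library, UUO1 and UUO2. C1qb ranged from 5540 to 6860 CPM in control, 5676 to 7028 in UIR and 5726 to 7431 in UUO, and C1qc from 3810 to 4527, 3536 to 4501 and 3908 to 5126 CPM. The 3 groups overlapped for each gene. The log2 change of C1qa was −0.02 ± 0.13 (SE) in UIR and −0.02 ± 0.13 in UUO (edgeR, adjusted p = 0.956 and 0.965). C1qb changed by −0.04 ± 0.15 and −0.01 ± 0.15, and C1qc by −0.08 ± 0.14 and 0.08 ± 0.14, with none called. Among macrophages thinned to 1000 UMIs, 98.6%, 96.1% and 97.3% of cells in control, UIR and UUO had a C1qa UMI. The macrophages behind these means differed between groups. A sub-cluster led by Mmp13 and Tgfbr1 held 83.8% of control macrophages, 9.55% in UIR and 1.49% in UUO. One led by Stab1 and P2ry6 held 7.77%, 43.7% and 25.4%. One led by Pf4 and Hmox1, of median 850 UMIs a cell, held 4.73%, 27.2% and 59.9%. These are percents of cells, whereas the levels rest on UMIs. Of 14992709 macrophage UMIs in UUO, pools of the Stab1 P2ry6 cells supplied 7935436, those of a Retnla Mmp12 sub-cluster 3673418 and those of the Pf4 Hmox1 cells 2455800. Within the Mmp13 Tgfbr1 sub-cluster alone, C1qc was lower in UUO by a log2 change of −0.73 ± 0.18 (edgeR, adjusted p = 0.0081, 5.66% of genes called, 2 UUO libraries), with C1qa at −0.30 (adjusted p = 0.341) and C1qb at −0.48 (adjusted p = 0.104).

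**Figure D3:**
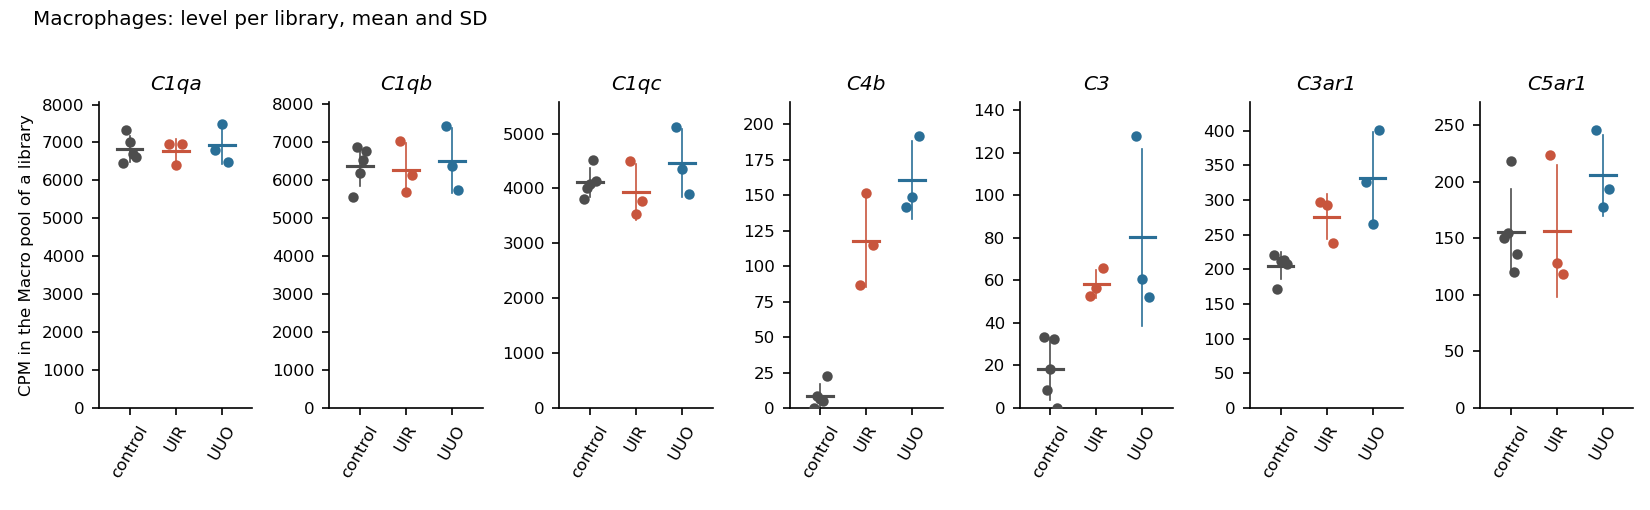
Level of 7 complement genes in macrophages in CPM, 1 point per library with the group mean and SD (5 control, 3 UIR, 3 UUO). C1qa, C1qb and C1qc overlap between groups, C4b lies at 0 to 22.7 CPM in control and at 87.0 to 192 CPM in the injured libraries, and C3ar1 reaches 401 CPM in UUO.

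Outside macrophages, C1q UMIs were counted in every class with an injured pool. Of 25 gene-by-class pairs tested there against control, 20 were called higher in UIR and 22 in UUO, frTECs had none called in UIR, and monocytes, neutrophils, cDC1, cDC2 and B cells had no control pool to compare with. In PT cells C1qa was at 1.40, 1.12, 1.19, 2.21 and 1.22 CPM in control, 28.3, 47.2 and 52.5 CPM in UIR and 337, 264 and 27.5 CPM in UUO. The log2 change was 4.89 ± 0.29 in UIR and 5.46 ± 0.63 in UUO (edgeR, adjusted p = 5.18e-12 and 2.67e-06), and the UUO value was 4.76 without the unnumbered UUO library and 6.94 without UUO2. Both injured groups lay above each control library, and the UUO range, from pools of only 40, 30 and 90 cells, contained the UIR range. LOH cells showed log2 changes of 3.55 and 3.62 for C1qa (4.25 and 4.31 without AN1). With doublets kept these were 0.083 and 0.368, and with cells named by their own markers 0.042 and 0.192, and the LOH calls of all 3 C1q genes ended in both injuries under either setting. Endothelium had changes of 3.60 to 5.01 in UIR and 4.12 to 5.09 in UUO over the 3 C1q genes. Fibroblast pools of the controls, 3 in number, held 0 C1q UMIs, so C1qa was at least 5.89-fold higher in UIR and at least 5.11-fold in UUO (3 counts taken as the floor over the control pools). T/NK cells, which should not make C1q, had 0 CPM of C1qa in each control library and were at least 6.65-fold and 7.39-fold higher. Their control pools averaged 3.50 ± 4.83 CPM of C1qb (SD, n = 5), which was called (3.50 and 3.31, or 4.21 and 4.01 without AN2), and 5.40 ± 4.94 CPM of C1qc, which was not (2.11 and 2.08, edgeR, adjusted p = 0.181 and 0.101).

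Several of these C1q calls ended without 1 library or within a sub-cluster of the class. Leaving out N2 ended the C1qa call of CD-I cells in UIR (log2 change 2.38), as did naming cells by their own markers (2.95). A CD-I sub-cluster led by Hmx2 and Atp6v1c2 held 78.9% of that class in control, 51.2% in UIR and 17.7% in UUO, and within it C1qa in UIR was not called (2.46, adjusted p = 0.302). Mural-type Fibro 3 cells held 95.1% of control fibroblasts, 37.2% in UIR and 33.6% in UUO, and within them C1qa and C1qb were called in UIR (edgeR, adjusted p = 0.0182 and 0.0244) but not C1qc (0.0874), and none of the C1q genes was called in UUO (adjusted p = 0.0617 to 0.152). The fitted log2 changes there stayed at 6.19 to 7.47 in UIR and 6.18 to 6.81 in UUO, values that depend on the prior count. In fibroblasts as a whole, leaving out N1, N2 or AN1 ended the C1qa call in UIR (adjusted p = 0.0554 to 0.0838 by edgeR) and UUO (adjusted p = 0.0734 to 0.108), while leaving out N2 ended the C1qc calls (adjusted p = 0.0709 in UIR and 0.064 in UUO). In podocytes the UUO calls of C1qa and C1qb ended without UUO2 (3.21 and 3.36), and DESeq2 did not call C1qb in UIR (3.26). In frTECs the single member called, C1qb in UUO (at least 6.91-fold, adjusted p = 0.0394 by edgeR), was lost without any one of Ctrl, N2, AN2, UIR2, UUO1 and UUO2 (adjusted p = 0.0548 to 0.146), and with doublets kept (adjusted p = 0.131).

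Against free RNA, C1q UMIs in injured classes other than macrophages were 0.0633 to 3.47 times what the estimated free-RNA share would supply, and were above 1 in 6 of 25 class-by-group sets (medians over libraries). In macrophages the median was 239 times in UIR and 172 times in UUO, and 3390 times in control. The summed level of 7 macrophage markers in PT pools (none at 0 in any group) was 11.6 to 24.6 CPM in control, 32.2 to 60.3 in UIR and 40.1 to 216 in UUO. In CD-P and fibroblast pools the injured ranges also lay above the control range. In LOH pools the ranges overlapped, and in frTECs the sum was 64.1 to 89.1 CPM in control, 32.8 to 50.5 in UIR and 28.6 to 72.7 in UUO. Control podocytes held 1834 to 2201 CPM of these markers beside 0 to 18.2 CPM of summed C1q. The sum can therefore not be read as macrophage RNA in podocytes, and which marker supplied it was not tested. C1q UMIs per macrophage-marker UMI ranged from 0.0542 to 2.81 in the injured classes other than macrophages (median 0.805) and from 3.54 to 4.8 in macrophages. The low end came from UUO podocytes, to which the same limit applies. After subtraction of the estimated free RNA, 3 C1q pairs outside macrophages still passed the low-count filter and 0 were called in either injury (0 at an unadjusted p under 0.05, edgeR). The share itself is uncertain: it was estimated at 2.54% to 81.1% of UMIs in the injured pools outside macrophages and at 100% in control CD-I cells of N1 and frTECs of N2, and where a ratio lies under 1 the estimate exceeds the C1q UMIs counted and subtraction leaves none. In cells thinned to 1000 UMIs, 0.211%, 6.63% and 6.56% of PT cells in control, UIR and UUO had a C1qa UMI, and T/NK cells had one in 0%, 3.47% and 4.29% (median UMIs per cell before thinning 3261, 1670 and 1033.5 in PT and 4166.5, 3827 and 4608 in T/NK).

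**Figure D4:**
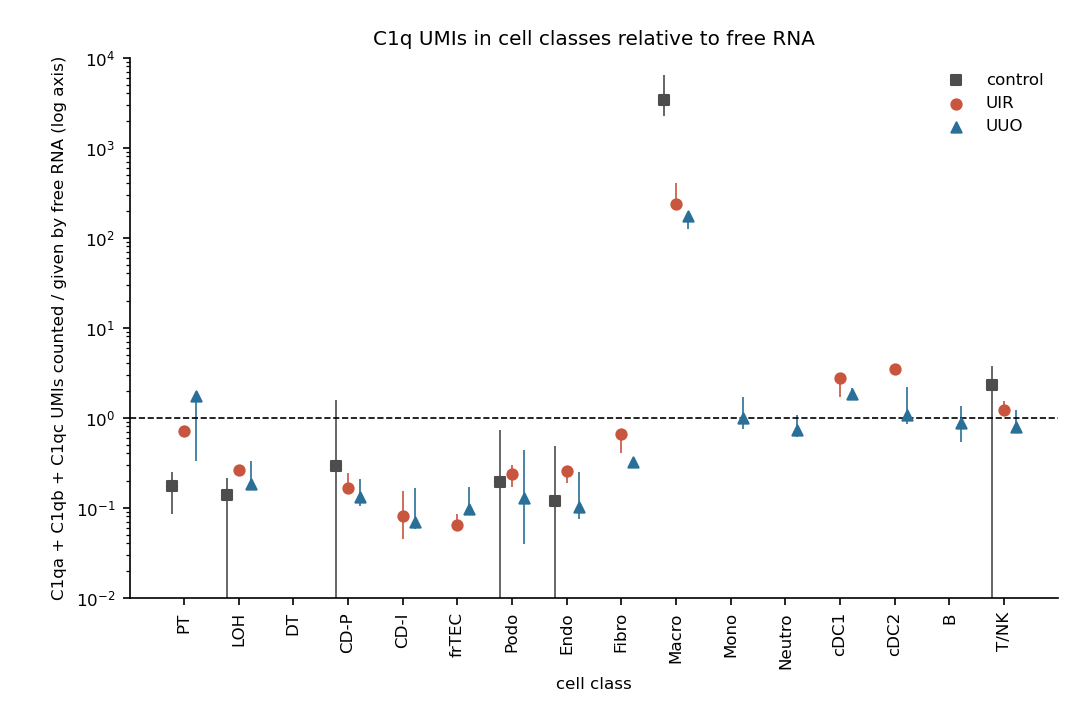
Ratio of counted C1q UMIs to the UMIs that free RNA would supply, by cell class and group, on a log axis; points are medians over libraries and bars run from the lowest to the highest library. The dashed line at 1 marks free RNA alone, and macrophages lie at 239 in UIR and 172 in UUO (3390 in control) while the other classes of the injured groups lie at 0.0633 to 3.47.

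C4b, the classical pathway component cleaved next, rose in macrophages in both injuries. Its level was 0, 8.35, 6.07, 4.63 and 22.7 CPM in control macrophages, 87.0, 151 and 115 CPM in UIR and 141, 149 and 192 CPM in UUO. Each injured library lay above each control library, with log2 changes of 3.65 ± 0.38 and 4.05 ± 0.37 (edgeR, adjusted p = 2.37e-06 and 1.12e-07), or 4.68 and 5.08 without AN2. The counted UMIs were 65.1 to 108 times the free-RNA estimate in UIR and 71.5 to 91.1 times in UUO. In thinned cells 0.549%, 9.51% and 12.2% of macrophages in control, UIR and UUO had a C4b UMI, against 0%, 0.254% and 0.238% of T/NK cells. The rise was present within the Mmp13 Tgfbr1 sub-cluster that dominates control kidneys, where C4b changed by 4.83 ± 0.52 in UIR and 5.34 ± 0.65 in UUO (adjusted p = 3.98e-09 and 1.44e-07, with 3.43% and 5.66% of genes called). There C3 was also called (3.84 and 4.68, adjusted p = 0.00777 and 0.00481), while C3ar1 was not (0.39 and 0.65, adjusted p = 0.337 and 0.132). Among the sub-clusters of injured kidneys, C4b was lowest in one led by Retnla and Mmp12 (18.2 ± 7.49 CPM in UIR and 38.5 ± 27.9 in UUO, SD, n = 3) and stood at 166 ± 60.7 and 228 ± 61.1 CPM in the Stab1 P2ry6 sub-cluster, a description with no test.

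In PT cells C4b was at 3.85, 2.93, 3.84, 4.09 and 3.77 CPM in control, 16.9, 44.2 and 52.5 CPM in UIR and 0, 231 and 148 CPM in UUO. The zero came from a pool of 40 cells and 41578 UMIs, in which a count of 0 allows up to 72.2 CPM. The log2 changes were 3.37 ± 0.27 in UIR and 4.95 ± 0.45 in UUO (edgeR, adjusted p = 1.12e-09 and 5.64e-08), and the UUO call ended without UUO2 (3.95). PT counts of C4b were 3.74 to 21.4 times the free-RNA estimate in control, 8.49 to 13.3 times in UIR and 0 to 47.7 times in UUO, and both calls held after subtraction (3.31 and 4.87). Control fibroblasts held 0 C4b UMIs in 3 pools, while injured ones had 13.7, 21.5 and 15.2 CPM in UIR and 39.3, 28.1 and 55.5 CPM in UUO. That is at least 2.46-fold and 5.67-fold higher (adjusted p = 0.0242 and 0.00238), and the UIR call ended without N1, N2 or AN1 (adjusted p = 0.0677 to 0.109). With doublets kept both ended (log2 change −0.85 and 0.65). Counted UMIs in fibroblasts were 3.43 to 9.90 times the free-RNA estimate. Most control fibroblasts were of the Fibro 3 type (mural markers, 95.1%), whereas Fibro 1, marked by Dcn and Col1a1, made up 42.5% in UIR and 56.4% in UUO. C4b averaged 25.6 ± 1.91 and 67.7 ± 42.5 CPM in Fibro 1 and 6.95 and 18.7 CPM in Fibro 3.

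C3, where the pathways meet, was called higher in PT, LOH, CD-P, endothelial, fibroblast and macrophage pools. After subtraction of free RNA it was still called in PT and LOH cells in both injuries and in macrophages in UUO. PT cells had 2.63, 2.51, 1.32, 2.76 and 1.53 CPM in control, 13.3, 43.7 and 16 CPM in UIR and 24.1, 165 and 148 CPM in UUO. The log2 change was 3.63 ± 0.32 in UIR and 5.70 ± 0.51 in UUO (edgeR, adjusted p = 7.06e-09 and 5.64e-08), with 2.73 in UIR without UIR1. The 3 groups were ordered except that the lowest UUO library, with 1 C3 UMI, lay within the UIR range. UUO exceeded UIR by 2.07 ± 0.44 (adjusted p = 0.0395, 0.14% of genes called higher), a call that ended without the unnumbered UIR library (1.77), UIR2 (1.84), UUO1 (2.08) or UUO2 (0.87) and was 2.93 without UIR1. It also ended at a mitochondrial limit of 15% (1.38), with doublets kept (0.71), with cells named by their own markers (1.42), at Leiden resolution 2 (2.22) and after subtraction of free RNA (2.66), and DESeq2 gave it no adjusted p. The UUO call against control ended without UUO2 (4.50). The level of the 4 frTEC markers in PT cells moved alongside, at 83.0 CPM in control, 251 in UIR and 314 in UUO, with 1 of the 4 at 0 in UUO, and its part in the C3 result was not tested.

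Pools of the LOH class, whose sub-clusters differed by group, had more C3 in UUO than in UIR. C3 was at 0, 0, 2.57, 0 and 2.33 CPM in control, 21.5, 80.5 and 33.2 CPM in UIR and 83, 94.6 and 229 CPM in UUO. The injured libraries lay above each control and each UUO library lay above each UIR library. The log2 changes were 5.15 ± 1.13 and 6.71 ± 0.93 (edgeR, adjusted p = 0.00116 and 3.96e-06), with 4.40 in UIR without UIR1 and 5.82 and 7.38 without N2, and UUO exceeded UIR by 1.56 ± 0.33 (adjusted p = 0.0105, 1.25% of genes called higher). The difference between injuries ended as a call without UIR2 (1.37) or UUO2 (0.998), by DESeq2 (1.60), with only the groups compared in the model (1.56) and at a mitochondrial limit of 15% (1.57), and was 2.28 without UIR1. Counted C3 UMIs were 2.38 to 4.74 times the free-RNA estimate in UIR and 5.46 to 18.8 times in UUO, and all 3 calls held after subtraction (4.66, 6.49 and 1.82). The LOH class was made of different sub-clusters: one led by Egf and Nccrp1 held 95.5% of control cells, one led by Cldn10 and Slc12a1 held 58.9% in UIR and 37% in UUO, and one led by Psca and Slurp1 20.7% and 48.8%. The Psca Slurp1 sub-cluster held 0 control cells. C3 averaged 127 ± 95.1 CPM in UIR and 209 ± 118 in UUO in the Psca Slurp1 cells, and 14.0 ± 2.04 and 28 ± 13.6 CPM in the Cldn10 Slc12a1 cells. Within either sub-cluster the difference between injuries was not called (0.68, adjusted p = 0.999, and 0.90, adjusted p = 0.404).

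The CD-P class held different cells by group: sub-clusters led by Scube3 and Ltc4s and by Sprr2f and Stc1 made up 51.1% and 22.2% of it in UIR and 38.0% and 58.1% in UUO, but only 2 and 1 cells in control. Collecting duct principal cells had 0 C3 UMIs in each control library, 7.13, 10.6 and 8.67 CPM in UIR and 18.3, 29.6 and 11.2 CPM in UUO. These were at least 14.9-fold and 37.2-fold higher (edgeR, adjusted p = 0.000127 and 1.63e-06), and UUO exceeded UIR by 1.16 ± 0.31 (adjusted p = 0.0342, 3.19% of genes called higher). The counts were 0.42 to 0.65 times the free-RNA estimate in UIR and 0.64 to 1.03 times in UUO. The difference between injuries ended without the unnumbered UIR library (1.03), UIR1 (1.31), UIR2 (1.13), the unnumbered UUO library (1.2) or UUO1 (0.75), by DESeq2 (1.13), at a mitochondrial limit of 15% (1.10) and at Leiden resolution 2 (−0.03). It was called within the Sprr2f Stc1 cells (2.74 ± 0.49, adjusted p = 0.00943, 0.257% of genes called) and lay at −0.49 (adjusted p = 0.656) in the Scube3 Ltc4s cells.

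The frTEC class had the highest mean C3 level of the classes, and its control pools held C3 too. Of control frTECs, 80.4% belonged to a sub-cluster led by Aqp1 and Bst1. C3 was at 64.1, 651 and 61.4 CPM in the control libraries with enough cells (Ctrl, N2 and AN2), 222, 778 and 581 CPM in UIR and 302, 1185 and 295 CPM in UUO. The groups overlapped, and the log2 changes of 1.2 ± 0.87 and 1.32 ± 0.87 were not called (edgeR, adjusted p = 0.483 and 0.437). Counted UMIs were 45.4 to 316 times the free-RNA estimate in control, 4.18 to 18.7 times in UIR and 8.14 to 23.8 times in UUO. In thinned cells C3 UMIs were found in 10.0%, 26.6% and 25.7% of frTECs (19.6%, 50.4% and 49.4% before thinning), against 0%, 0.430% and 0.522% of T/NK cells. A sub-cluster led by Ugt2b37 and Ubd averaged 877 ± 181 CPM in UIR and had 1665 CPM in the single UUO library with enough cells, one led by Tnc and Eln averaged 683 ± 217 and 938 ± 200 CPM (2 libraries in UUO), and the Aqp1 Bst1 cells that made up 80.4% of control frTECs averaged 41.8 ± 36.0 CPM in UIR. The 3 control pools held 26, 21 and 32 frTECs, and N2 alone, with 651 CPM, lay within the range of the injured libraries.

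**Figure D5:**
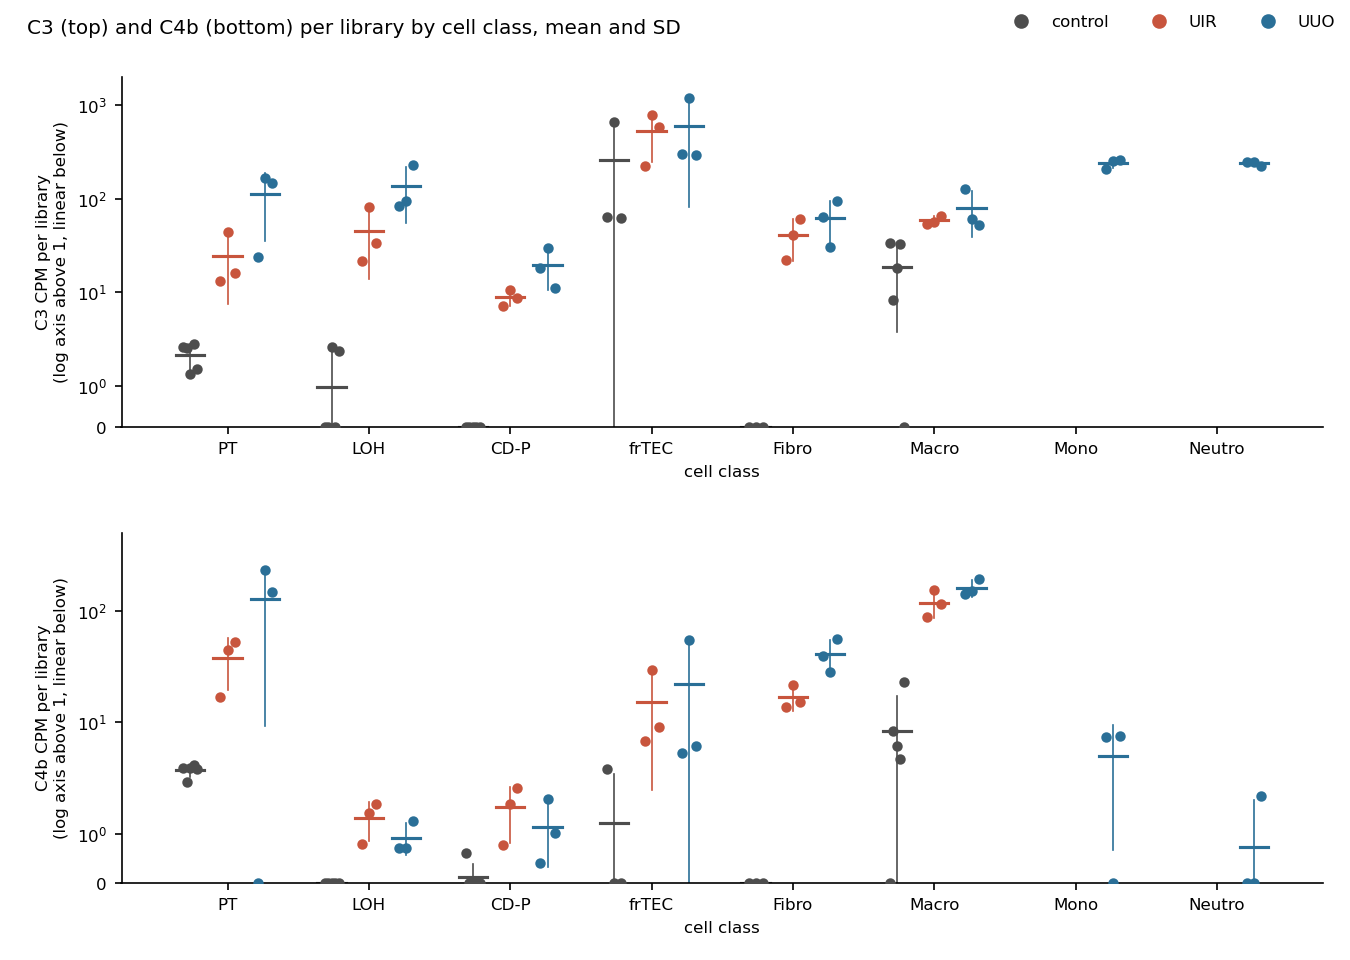
Levels of C3 (top) and C4b (bottom) in CPM in PT, LOH, CD-P, frTEC, fibroblast, macrophage, monocyte and neutrophil pools, 1 point per library with the group mean and SD, on an axis that is linear below 1 and logarithmic above. C3 in LOH cells rises from 0 to 2.57 CPM in control through 21.5 to 80.5 in UIR to 83 to 229 in UUO, and C4b in macrophages from at most 22.7 CPM to at least 87.0.

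C3 UMIs were also counted in stromal, endothelial and myeloid pools. Fibroblasts had 0 UMIs in the 3 control pools, 21.9, 40.9 and 61.0 CPM in UIR and 62.9, 30.6 and 94.6 CPM in UUO, which is at least 6.19-fold and 8.63-fold higher (edgeR, adjusted p = 0.0201 and 0.00857). The UIR call ended without N1, N2 or AN1 (adjusted p = 0.0696 to 0.102) and the UUO call without N2 (adjusted p = 0.0588). After subtraction of free RNA both calls ended (adjusted p = 0.196 and 0.143), and with doublets kept the UIR call ended (log2 change 0.59). Fibro 1 averaged 75.0 ± 45.6 and 126 ± 105 CPM, and Fibro 3 averaged 3.85 and 12.1 CPM. In macrophages C3 was at 33.3, 8.35, 18.2, 32.4 and 0 CPM in control, 52.9, 56.5 and 65.8 CPM in UIR and 128, 60.6 and 52.2 CPM in UUO. The injured libraries lay above the controls, with log2 changes of 1.76 ± 0.50 and 2.15 ± 0.48 (adjusted p = 0.0348 and 0.00503). The UIR call ended without N1 (1.60), N2 (1.77), AN2 (1.36), UIR1 (1.75) or UIR2 (1.65), at a mitochondrial limit of 15% (1.53) and after subtraction of free RNA (1.64). Endothelium had at most 3.18 CPM in control and 7.05 to 10.4 CPM in UIR and 3.44 to 6.53 CPM in UUO (2.90 ± 0.62 and 2.11 ± 0.66, adjusted p = 0.0175 and 0.0444, or 3.62 and 2.83 without N2). These endothelial counts were 0.23 to 0.34 and 0.06 to 0.12 times the free-RNA estimate, the UIR call ended without Ctrl (2.35) or UIR1 (2.68) and at a mitochondrial limit of 15% (2.65), and the UUO call ended without any one library other than N2 and UUO2 (1.56 to 2.25), by DESeq2 (2.14), at the 15% limit (2.21), at 1000 UMIs or more (1.81) and with the replicate number as a block (2.11). Monocytes and neutrophils had pools in UUO only: C3 stood at 209.5, 252.5 and 259.5 CPM in monocytes and at 246, 248 and 220.5 CPM in neutrophils, 10.8 to 35.0 times the free-RNA estimate.

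Cfb, the protease partner of C3 in the alternative pathway, was highest in PT cells by the mean over all libraries and was not called in any class where it was tested. In the 3 UUO libraries with monocyte pools, PT cells exceeded monocytes in 1. PT cells had 22.1, 14.8, 12, 20.5 and 22.3 CPM in control, 25.9, 20.4 and 19.1 CPM in UIR and 0, 0 and 57.0 CPM in UUO. The log2 changes were 0.26 ± 0.21 and 1.15 ± 0.45 (edgeR, adjusted p = 0.478 and 0.172), and the 0 values came from pools of 40 and 30 cells. Counted PT UMIs were 4.72 to 10.7 times the free-RNA estimate in control and 16.6 to 26.3 times in UIR. Endothelium had 0 to 4.47 CPM in control, 1.92 to 8.87 in UIR and 5.44 to 6.48 in UUO (0.78 and 0.90, not called). Cfb was at 0 in the control pools of frTECs, fibroblasts and macrophages. In frTECs it reached 17.5 CPM in UIR and 17.8 CPM in UUO, but was 0 in the unnumbered UIR library and UUO2. It lay at 2.62 to 4.11 and 3.19 to 6.37 CPM in fibroblasts, and averaged 1.74 ± 0.51 and 4.34 ± 1.8 CPM in macrophages. A count of 0 over the control pools allows 4.16 CPM in frTECs, 6.93 in fibroblasts and 2.57 in macrophages.

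Among the receptors, C3ar1 rose in macrophages in UUO. Its level was 221, 171, 212, 213 and 208 CPM in control, 297, 293 and 239 CPM in UIR and 326, 266 and 401 CPM in UUO. The injured libraries lay above all 5 controls, and the log2 change was 0.42 ± 0.15 in UIR (edgeR, adjusted p = 0.0973, not called) and 0.64 ± 0.15 in UUO (adjusted p = 0.00569). The difference between injuries was not called. C3ar1 UMIs in macrophages were 199 to 263 times the free-RNA estimate in UIR and 113 to 151 times in UUO. At equal depth of 1000 UMIs, 22.7%, 21.1% and 25.4% of macrophages had a C3ar1 UMI. PT cells had at most 0.221 CPM in control, 0.602, 2.15 and 4.28 CPM in UIR and 24.1, 0 and 12.7 CPM in UUO (4.34 ± 0.67 and 6.62 ± 1.13, adjusted p = 5e-05 and 0.000695). Those PT counts were 0.24 to 1.68 and 0 to 2.82 times the free-RNA estimate, and the UUO call ended without UUO2 (6.21).

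C5ar1, the receptor for the C5 fragment that draws in neutrophils, was not called in macrophages. Macrophages had 150.1, 154, 218, 120.5 and 136.5 CPM in control, 224, 128 and 118 CPM in UIR and 245.5, 178 and 194 CPM in UUO. The groups overlapped, and the log2 changes were 0.00 ± 0.22 and 0.38 ± 0.21 (edgeR, adjusted p = 0.998 and 0.295). Neutrophils of UUO had 558, 359 and 264 CPM, above the macrophages of the same libraries in 3 of 3. Monocytes had 50.1, 17.9 and 22.7 CPM, and the other classes averaged at most 2.17 CPM in any group. In thinned cells C5ar1 UMIs were found in 32.0% of UUO neutrophils, in 14.2%, 13.1% and 16.1% of macrophages and in 0% of T/NK cells in each group.

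Cd55, the surface regulator, was a podocyte gene with no called change there. Podocytes had 339, 271, 298, 302 and 327 CPM in control, 301, 297 and 267 CPM in UIR and 287, 356 and 351 CPM in UUO. The groups overlapped (log2 change −0.11 ± 0.13 and 0.12 ± 0.15, adjusted p = 0.931 and 0.81 by edgeR). Podocyte counts were 38.3 to 202 times the free-RNA estimate, and at 1000 UMIs per cell 24.7%, 24.1% and 32.8% of podocytes had a Cd55 UMI, against 1.60%, 0.572% and 1.03% of T/NK cells. B cells of UUO had 253, 228 and 148 CPM, 304 to 450 times the free-RNA estimate. LOH cells were the one class where Cd55 was called: 0, 0, 0, 0 and 6.98 CPM in control, 6.36, 7.56 and 5.07 CPM in UIR and 9.53, 10.0 and 9.41 CPM in UUO. Its log2 change there was 1.75 ± 0.75 in UIR (adjusted p = 0.0816, not called) and 2.37 ± 0.70 in UUO (adjusted p = 0.0105), and the UUO call held after subtraction of free RNA (2.16). All control UMIs came from AN2, and leaving out 1 library moved the UUO change between 1.92 (without Ctrl, adjusted p = 0.0497) and 8.34 (without AN2). Endothelium (4.47 to 14.3 CPM in control, 9.01 to 16.7 in UIR and 12.3 to 19.4 in UUO), CD-P and PT cells were not called.

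Between the injuries, 58 pairs in 12 classes were tested and 3 were higher in UUO, each of them C3 in the PT, LOH and CD-P cells described above. At an unadjusted p under 0.05, 9 pairs were higher and 3 lower. No member was called between UUO and UIR in CD-I (0.391% of genes called higher), frTECs (0%), podocytes (0%), endothelium (0.985%), fibroblasts (0.656%), macrophages (0.274%), T/NK (0.156%), cDC1 (0%) or cDC2 (0.0515%) cells. In fibroblasts C4b came nearest, at 1.21 with an adjusted p of 0.0636.

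Over all kept cells of a library, where fewer cells of a type and less RNA per cell cannot be told apart, each of the 9 members was called in both injuries, beside 60.7% of all genes in UIR and 70.8% in UUO. C1qa went from 95 to 176 CPM in control to 490 to 928 in UIR and 780 to 1616 in UUO. C3 (3.73 ± 0.50 and 3.74 ± 0.50, with 3.1 in UIR without UIR1), C4b (2.33 and 3.04), C3ar1 (2.53 and 3.57, with 2.99 in UUO without UUO2) and C5ar1 (2.07 ± 0.21 and 3.4 ± 0.21) were higher by edgeR. Cfb fell, from 8.3 to 15.5 CPM in control to 3.0 to 6.2 in UIR and 3.1 to 4.8 in UUO (−1.82 ± 0.28 and −2.21 ± 0.29, adjusted p = 0.000124 and 2.09e-05). With PT cells left out, Cfb turned: cells outside PT averaged 1.02 ± 0.3 CPM in control, 2.41 ± 0.93 in UIR and 3.37 ± 1.3 in UUO, a log2 change of 1.16 and 1.62 (adjusted p = 0.0327 and 0.0033). Cd55 was lower in all cells (−1.18 ± 0.18 and −0.83 ± 0.18, adjusted p = 0.000131 and 0.0012) and outside PT (−1.88 and −1.51). UUO exceeded UIR for C1qc (0.84 ± 0.25), C3ar1 (1.05 ± 0.32) and C5ar1 (1.33 ± 0.21), with adjusted p of 0.0303, 0.0369 and 0.00127 and 20.8% of genes called. The C1qc call ended without the unnumbered UIR library (0.69), UIR1 (0.88), UUO1 (0.86) or UUO2 (0.61), and the C3ar1 call without AN1 (1.05), the unnumbered UIR library (0.86), UIR1 (1.21), UIR2 (1.06) or UUO2 (0.46). Both ended with only the groups compared in the model, at the 15% mitochondrial limit and outside PT (0.74 to 0.84 for C1qc and 0.94 to 1.04 for C3ar1).

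Beyond the members, 43 other complement genes of a fixed list were in the matrices. In fibroblasts, control pools were mostly Fibro 3 cells and injured pools largely Fibro 1. There 10 of 17 tested genes were higher in UIR and 11 of 17 in UUO by edgeR (9.65% and 9.69% of all genes called higher). The list median log2 change was 2.95 and 3.13 against 0.13 and 0.13 over all genes. C2, Colec11, C6, C7 and Csmd1 had 0 UMIs in the control pools, so none of them could be called lower. Their fitted changes, which depend on the prior count, lay above the list median in both injuries. C2, C7 and Csmd1 were among the genes called in both injuries, and Colec11 among those called in UUO. Serping1, the inhibitor of C1, rose from 125 to 191 CPM to 1030 to 1259 and 1075 to 1629 (log2 changes of 2.95 and 3.13), and C1ra, a protease of the C1 complex, from 15.6 to 36.5 CPM to 116 to 127 and 161 to 178 (2.35 and 2.84). In macrophages 4 of 12 were higher in each injury (3.93% and 5.48% of all genes called higher), including Cfp (properdin, which stabilises the alternative pathway enzyme, 3.17 and 3.22) and Itgam (a subunit of complement receptor 3, 2.39 and 2.43). Clu, an inhibitor of the terminal complex, rose in LOH cells from 36.7 to 160 CPM to 2292 to 2456 in UIR and 2886 to 3486 in UUO (4.30 and 4.75) and in CD-P cells (2.48 and 2.74). Cd59a, which blocks the terminal complex on cell surfaces, was lower in LOH (−0.44 and −0.70, beside 14.2% and 16.5% of all genes called lower), CD-P (−0.75 and −1.24, beside 12% and 18.4%) and frTEC pools (−1.28 and −1.24, beside 2.01% and 2.62%) and in UUO endothelium (−0.70, beside 6.38%), and was higher in fibroblasts (1.78 and 2.21). In PT cells 6 of 18 were higher in UIR (7.65% of all genes) and 5 in UUO (2.37%), and 1, the terminal pathway gene C8a, was lower in UIR (−1.75, beside 4.38% of all genes called lower).

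The genes whose class-by-group pattern was most like a member's were taken over 38 mean levels from 12035 genes (Pearson r of log2(CPM + 1), a description over points that share libraries). C1qa was most like C1qb (0.987), C1qc (0.98) and Ms4a7 (0.975), and C3ar1 like Adgre1 (0.937) and Lilra5 (0.929). C5ar1 was most like C5ar2 (0.972), the second C5 fragment receptor, and Fpr2 (0.954). C4b was most like C2 (0.754), which encodes its partner in the classical pathway, and Ccl8 (0.745). Cfb was like Enpp3 (0.824) and Glis1 (0.812), and Cd55 like Gm15675 (0.873) and Wipf3 (0.789). C3 had weaker likenesses, led by Ccl2 (0.753) and Arl8a (0.752). By Spearman's rho, 3 of the 5 most alike genes were shared for each C1q gene and for C3. For C4b, Cfb and Cd55 2 were shared, for C5ar1 1 and for C3ar1 0. C5ar2, Fpr2, Adgre1 and Lilra5 were not among the shared genes. Among the members, r was 0.856 for C1qa with C3ar1, 0.697 for C1qa with C4b, 0.592 for C3 with C4b and 0.622 for C4b with Cfb, and Cd55 had r of −0.291 to −0.0864 with the other members.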

How the data were processed

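Kidney cell suspensions were profiled with 10x Chromium 3′ chemistry. The authors deposited raw counts of UMIs per gene for all barcodes of each library, made with Cell Ranger 3.1.0 on mm10 according to the matrix header and the submitters' processing notes. The study's methods also name ambient RNA and doublet removal, which these deposited counts do not carry.

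Cells were called per library (barcodes above the 99th percentile of the top 3000 divided by 10, or of at least 500 UMIs and differing from empty droplets of ranks 45000 to 90000 at an adjusted p of 0.01). Cells over 30% mitochondrial or 5% hemoglobin UMIs or under 200 genes were removed, as were the 7.5% with the highest simulated doublet score (3291 cells). Of 86595 called cells, 42323 exceeded the mitochondrial limit. Cells were clustered with Leiden (resolution 1, 2000 variable genes, 40 components, 20 neighbours, no complement gene among the features), and clusters were named from at least 3 markers detected in 10% of their cells. The naming limits and compartment genes were set after the clusters were seen. The 9 members, the gene lists and the tests were chosen with earlier results of these data known. Named genes were the 9 members, up to 6 other complement genes per class and contrast with the largest changes at 50 CPM or more, and the 5 genes most like each member. C8a in PT and Cd59a in Fibro lie outside this rule and were chosen after their values were seen.

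UMIs were summed per library and class (at least 20 cells), filtered with filterByExpr, scaled by TMM and tested with edgeR 4.0.16 (limma 3.58.1, R 4.3.3), the 3 groups in 1 model without covariates, with p-values adjusted by Benjamini and Hochberg's method across each fitted table and a threshold of 0.05. DESeq2 1.42.0, other scaling and filters, left-out libraries and other cell settings were alternatives. Analyses before the tests used Python 3.11.15, numpy 2.4.6, scipy 1.17.1, scikit-learn 1.9.0 and leidenalg 0.10.2. A count of 0 allows 3 counts, which covers counting error only. No 2 libraries of a group were duplicates (chi-square per degree of freedom 7.48 to 132 over 16 pairs), and 208 barcodes occurred in more than 1 library, at most 18 in any pair. Summed over 55 pairs, 210 barcodes were shared, against 108 for random draws. The top pair, UIR1 and UIR2, shared 18 against 6.01. Scripts were tested on simulated data.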

Additional observations from a re-analysis of the deposited data

Results flagged for a closer look

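Of 35 control groups of levels tested for a single library far from the rest (Dixon's test), 6 had one, and chance flags about 1 in 20. C1qa in PT cells was 2.21 CPM in AN1, and in CD-I cells AN2 alone had 7.66 CPM of C1qa and 7.66 CPM of C1qb. C3 over all kept cells was 9.91 CPM in N2, the library whose frTECs held 651 CPM. C4b in PT cells was low in N1 (2.93 CPM), as was C3ar1 in macrophages of N1 (171 CPM).

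In the main setting, UUO was called higher than UIR (edgeR, log2 change) for C3 in PT (2.07), LOH (1.56) and CD-P cells (1.16). Over all kept cells it was called higher for C1qc (0.84), C3ar1 (1.05) and C5ar1 (1.33). In class pools DESeq2 called 0 pairs between the injuries, as did edgeR at a mitochondrial limit of 15%. The value of C3 in CD-P cells was −0.03 at Leiden resolution 2. Outside PT the calls of C1qc and C3ar1 ended, while that of C5ar1 held (1.23).

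Cells left unnamed entered no comparison, and their median levels over libraries lay above the highest control library for several members. C1qa was at 1271 CPM and C1qb at 1185 CPM in UIR, against at most 752 and 758.5 CPM in control. C3 was at 70.7 CPM in UIR and 48.4 CPM in UUO (control at most 6.53), and C4b at 27.4 and 13.8 CPM (control at most 3.17). C3ar1 was at 39.5 CPM and C5ar1 at 15.7 CPM in UIR, against at most 19.6 and 4.90 CPM in control. In UUO the medians of C1qa, C1qb and C3ar1 (292, 306 and 13.4 CPM) lay within the control range. The UUO median of C5ar1 (15.4 CPM) lay above it.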

How the results depend on the processing

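Of 2010 planned values over 101 single results, 1850 kept direction and side of the threshold, 105 lost and 4 gained the call, and 51 changed sign. The count of members called in class pools (30 in UIR, 34 in UUO) was 26 to 33 and 28 to 35 with 1 library left out. It was 11 and 13 at a mitochondrial limit of 15%, which left too few control cells in LOH, CD-P, CD-I, frTEC, Fibro and T/NK, 5 and 8 after free RNA was subtracted, 19 and 22 with the AN controls only, 20 and 26 with the N controls only, and 21 in UUO with only the groups compared in the model. The count for UUO against UIR (3) was 1 to 4 with 1 library left out (1 without UIR2), 0 by DESeq2 (13 at an unadjusted p under 0.05) and 0 at the 15% limit (12 at an unadjusted p under 0.05, edgeR), 8 with no filter beyond 1 count, 6 with cells named by their own markers, 1 at Leiden resolution 2 and 1 after subtraction of free RNA. Over all kept cells 9 members were called against control in each setting, with Cfb turned from lower to higher outside PT, and the 3 between injuries became 1 to 4 with 1 library left out (1 without the unnumbered UIR library, UIR1 or UUO2), 1 with only those groups, 1 at 15% and 1 outside PT. The replicate number as a block gave 5 in class pools and 5 over all cells. Deviations of same-numbered libraries had r of −0.078 to 0.286 over 13 pairs (1 over 0.1), against −0.303 to 0.234 over 26 other pairs. The highest r joined the unnumbered UIR and UUO libraries. These values cannot tell whether libraries shared a run. By Spearman's rho, 19 of the 45 most alike genes were shared.

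Sign changes, whose cause was not tested, fell mostly on values that were not called. In macrophages, C1qa in UIR was 0.062 with no filter, 0.024 at 15%, 0.060 at resolution 2, 0.020 with the AN controls and −0.059 to 0.020 with 1 library left out, and in UUO 0.072, 0.028, 0.018, 0.032 and −0.116 to 0.042. C1qb in UIR was 0.046 with no filter, 0.023 at 15%, 0.028 at resolution 2 and −0.124 to 0.0046 with 1 library left out, and in UUO 0.079, 0.049, 0.020 and −0.157 to 0.086, with 0.0038 at 1000 UMIs or more. C1qc in UIR was 0.0088 with no filter and 0.0025 at resolution 2, and in UUO −0.053 with doublets kept, −0.073 to 0.178 with 1 library left out and −0.73 within the Mmp13 Tgfbr1 sub-cluster. C5ar1 in UIR was −0.042 with RLE factors, −0.038 by DESeq2, −0.055 with only the groups compared, −0.088 with the block, −0.016 with doublets kept, −0.067 with own markers, −0.23 with the N controls, −0.46 in the sub-cluster and −0.32 to 0.162 with 1 library left out, and in UUO −0.035 in the sub-cluster.

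Outside macrophages, Cfb in PT of UUO was −0.29 at 15% and −9.73 to 1.33 with 1 library left out, the lowest without UUO2, when both remaining UUO pools held 0 UMIs. C1qb in LOH of UIR was −0.068 with doublets kept, C1qc in LOH −0.35 and −0.084 with own markers, C4b in Fibro of UIR −0.85 with doublets kept and C1qb in T/NK of UUO −0.38 after subtraction. C3 in CD-P between injuries was −0.028 at resolution 2 and −0.49 in the Scube3 Ltc4s cells. Cd55 in podocytes was 0.055 in UIR after subtraction, 0.0029 with the N controls, and −0.035 in UUO with own markers. Cfb over all cells was 1.16 and 1.62 outside PT. The sub-cluster and control-batch settings were added after the data were seen. The shallowest pools were control Fibro (432858 UMIs over the group), control T/NK (540103), UUO PT (545372), UUO Podo (657236) and control frTEC (720789).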
